A study of Rattus norvegicus with 18 samples.

Results

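Collagen and laminin chains make up much of the extracellular matrix of the lung, and the genes described here are those whose symbols name such a chain. They were chosen by symbol among the probe sets annotated to 1 gene, and the chains of cartilage collagens (Col2a1, Col10a1 and the Col9a and Col11a chains) were left out. This gave 61 of 31042 probe sets and 44 genes, of which 34 encode collagen chains and 10 encode laminin chains. Signals of 53 probe sets, for 40 genes (30 collagen and 10 laminin chains), were bright enough to be tested, among 11590 named genes tested in all. The other 4 genes, Col5a3, Col17a1, Col19a1 and Col20a1, had no probe set above the threshold on signal, and their highest values on any array were 14.7, 29.2, 4.5 and 21.8. Every count below is therefore out of the 40 genes tested, with 1 probe set per gene.

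Lungs of untreated Wistar rats were compared at 3 stages: fetal day 19 (FD19, the canalicular lung), fetal day 22 (FD22, the saccular lung before birth) and 5 h after birth (P1, the saccular lung after birth). Fetuses were delivered by Caesarean section and newborns were born vaginally, so that stage and mode of delivery cannot be told apart at P1. Each stage was represented by 3 litters with 1 lysate each. Total RNA and RNA of large polysomes, in which an mRNA carries more than 7 ribosomes, were prepared from every one of the 9 lysates and hybridised to an array apiece. The 18 Affymetrix expression arrays therefore formed 6 groups of 3, and how many animals each lysate pooled is not given in the sources used here. Whole lung was lysed, so in these data fewer cells of a type and less RNA per cell cannot be told apart.

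A collagen molecule is a triple helix of 3 chains. Fibrillar collagens I, III and V are made mainly by mesenchymal cells and assemble into the fibrils of the interstitium, with collagen V at the fibril core. Collagen IV chains form the network of basement membranes, the sheets on which epithelium and endothelium rest, and laminins, trimers of an alpha, a beta and a gamma chain, form the other network of these sheets. Around birth the epithelium and the capillaries of the lung come to share thin basement membranes, across which gas is exchanged. Nearly all these chains are secreted, and the transmembrane collagens stay on the cell surface. Their mRNAs are translated on ribosomes bound to the endoplasmic reticulum. The tested members were grouped as 7 fibrillar chains, 15 basement membrane chains (5 of collagen IV and the 10 laminins), 2 multiplexins (Col15a1 and Col18a1, collagens next to basement membranes), 5 chains of the microfibril-forming collagen VI, 4 fibril-associated collagens, 3 transmembrane collagens and 4 others.

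The genes of collagen IV lie in head-to-head pairs, and this arrangement is shown first because Col4a1 and Col4a2 had the lowest polysomal over total ratios among the basement membrane chains below. In the RefSeq sequence of the rat assembly GRCr8, 76 bases separate the annotated starts of Col4a1 and Col4a2. Between those of Col4a3 and Col4a4 lie 412 bases, and between those of Col4a5 and Col4a6 1414. The stretch between the Col4a1 and Col4a2 starts (chr16:84885521-84885596, plus strand) is printed with 1 match to GGGCGG, read on the opposite strand, in capitals.
Col4a1 and Col4a2: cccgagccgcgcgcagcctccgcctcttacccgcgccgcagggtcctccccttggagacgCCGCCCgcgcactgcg
Promoters of 3 further genes are given for comparison, each taken as the 250 bases before the annotated start. They are Col1a2 for the fibrillar chains (chr4:33518307-33518556, plus strand), Col18a1 for the chain with the deepest fall (chr20:11473395-11473644, plus strand) and Lamc1 for the laminins (chr13:68051987-68052236, minus strand). Capitals mark matches to CCAAT, to TATAAA and to GGGCGG on either strand.
Col1a2: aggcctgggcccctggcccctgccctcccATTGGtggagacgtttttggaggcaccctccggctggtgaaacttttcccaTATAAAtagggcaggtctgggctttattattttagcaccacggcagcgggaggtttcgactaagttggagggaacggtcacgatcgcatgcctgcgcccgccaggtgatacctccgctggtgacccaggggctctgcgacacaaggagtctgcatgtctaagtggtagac
Col18a1: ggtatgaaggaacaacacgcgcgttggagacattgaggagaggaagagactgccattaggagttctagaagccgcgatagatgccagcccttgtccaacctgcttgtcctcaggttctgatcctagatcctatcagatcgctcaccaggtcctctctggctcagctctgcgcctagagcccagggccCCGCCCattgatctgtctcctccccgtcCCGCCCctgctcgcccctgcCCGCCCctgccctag
Lamc1: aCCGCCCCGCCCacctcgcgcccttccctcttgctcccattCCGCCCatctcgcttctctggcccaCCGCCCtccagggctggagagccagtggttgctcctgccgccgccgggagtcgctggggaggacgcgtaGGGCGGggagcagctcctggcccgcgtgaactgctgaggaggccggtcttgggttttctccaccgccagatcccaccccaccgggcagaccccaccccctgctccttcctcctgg
Col1a2 held 1 CCAAT and 1 TATAAA, Col18a1 held 3 GGGCGG and Lamc1 held 5, some of them overlapping. Among 33469 rat promoters of this length, 34.0% held CCAAT, 30.5% held GGGCGG and 12.9% held TATAAA on either strand. Of the 32 member genes in that table, 6 held CCAAT, 19 held GGGCGG and 3 held TATAAA. A match is a string of letters and was not tested as a binding site. Whether transcription begins at the annotated starts was not tested either, so these stretches may hold transcribed bases. In Col1a2 most of the printed bases follow the TATAAA.

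Signals are linear, and a common trimmed mean had been set on the 18 arrays before deposition. Median signals ran from 51.6 to 73.5. Each change is a log2 difference between group means of 3 arrays, given ± the standard error (SE) that limma fitted. Adjusted p-values come from limma over all 21675 probe sets tested, and a change was called where the adjusted p was under 0.05. A polysomal over total ratio is relative, because both kinds of array were scaled alike: a ratio of 0 on the log2 scale means the same share of the scaled signal, not that all copies of an mRNA were on polysomes. The arrays numbered 1 stood apart for some members in all 6 groups. Col5a1, the collagen V chain, had total signals of 1849, 831 and 898 at FD19, 1055, 666 and 723 at FD22 and 1332, 678 and 670.2 at P1, with array 1 the highest each time. Where a call was lost with a lysate left out or under another setting, each such change was made alone. Only changes between arrays of the same probe set are compared here, since probe sets of different genes differ in brightness for reasons other than RNA level.

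Total RNA of FD22 was set against that of FD19 to see how the mRNA levels of matrix chains changed as the canalicular lung became saccular. Among the basement membrane chains Col4a1, Lama2, Lamb2 and Lamb3 rose and Lamb1 and Col4a6 fell. The fibrillar chain Col27a1 fell, and the collagen I and III chains Col1a1, Col1a2 and Col3a1 did not pass the test. The deepest fall was that of Col18a1. In total 5 members rose and 6 fell, that is 11 of 40, where 20.0% of all genes tested passed (9.68% higher and 10.3% lower), so this count of 11 lay near the background. It was 7 without FD19 lysate 1, without FD19 lysate 3, without FD22 lysate 1 or with only the arrays numbered 2 and 3, and 5 without FD19 lysate 2. The median change was 0.03 over the members and -0.01 over all genes tested. By class, 4 basement membrane chains rose and 2 fell of 15 (median 0.12), 1 fibrillar chain of 7 fell (median -0.17), 1 collagen VI chain of 5 rose (median 0.26) and 2 fibril-associated chains of 4 fell (median -0.21).

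The mean log2 signal of each class was followed on each array, as the change from the FD19 mean. In total RNA the fibrillar class stood at -0.30 ± 0.07 (SD, n = 3) at FD22 and at -0.51 ± 0.07 at P1. Its lowest chain was Col27a1, at -1.05 and -1.84, and the medians over the 7 fibrillar chains were -0.17 and -0.31. The collagen IV mean stood at 0.38 ± 0.16 and 0.44 ± 0.06, and that of the laminins at 0.12 ± 0.09 and 0.14 ± 0.11. The 3 FD22 arrays of the fibrillar class, from -0.36 to -0.22, all lay below the 3 FD19 arrays, from -0.11 to 0.18. From FD19 to FD22 the mean of the basement membrane class changed by 0.50 ± 0.06 more than that of the fibrillar class in total RNA and by 0.45 ± 0.09 more in polysomal RNA (SD of arrays within a group, n = 3). Only these changes can be read, since the levels of the class means depend on the brightness of their probe sets. They are descriptions with no test, and with Col1a1, Col1a2 and Col3a1 alone as the fibrillar class they were 0.36 and 0.28. The collagen IV mean includes Col4a4, whose FD19 signals lay below the threshold on signal. In total RNA Col4a4 had the largest changes of the 5 chains, 1.07 at FD22 and 1.75 at P1. It was tested only because of its brighter later arrays. What it adds to the collagen IV and basement membrane means is therefore no support for a change of these classes. The fibrillar mean includes Col24a1, whose P1 signals all lay below the threshold on signal. That chain was tested only because of its brighter FD19 and FD22 arrays. What Col24a1 adds to the fibrillar mean at P1 is likewise no support for a change of that class.

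**Figure D1:**
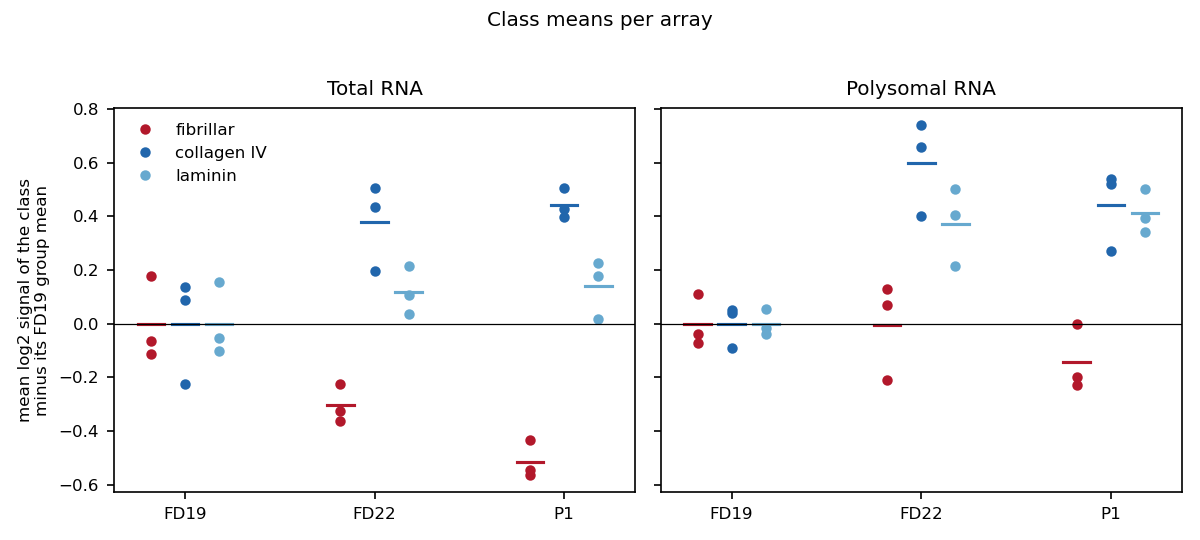
Mean log2 signal of the 7 fibrillar, 5 collagen IV and 10 laminin chains on each array, minus the mean of the FD19 group of the same RNA, by stage (points: 3 arrays per group, bars: group means). In total RNA the fibrillar means fall below 0 on all 6 arrays of FD22 and P1 (from -0.56 to -0.22) and the collagen IV means lie above 0 (from 0.20 to 0.51), while in polysomal RNA the fibrillar means stay around 0 at FD22 (from -0.21 to 0.13). In total RNA, Col27a1 fell furthest of the fibrillar chains. The fibrillar means also hold the dim Col24a1, with all P1 signals below the threshold on signal. The dim Col4a4 rose furthest of the collagen IV chains there.

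Col1a1 and Col1a2 encode the chains of collagen I, and Col3a1 encodes the chain of collagen III. Total signals of Col1a1 were 4685, 4102 and 4566 at FD19, 3789.5, 3839 and 4391 at FD22 and 4071, 4101 and 3916 at P1. Those of Col1a2 were 4075, 3562 and 4137 at FD19, 3278, 3555 and 3537 at FD22 and 3117, 3240.5 and 3107 at P1, and those of Col3a1 were 4341, 4964 and 4909.7 at FD19, 3839.5, 4543 and 4593 at FD22 and 3843, 4157 and 4463 at P1. The FD19 and FD22 arrays overlapped for Col1a1 and Col3a1, and did not for Col1a2, whose highest FD22 array lay just under the lowest of FD19. The changes were -0.15 ± 0.11 (adjusted p = 0.409), -0.18 ± 0.11 (adjusted p = 0.294) and -0.13 ± 0.11 (adjusted p = 0.463). Col5a2, the partner of Col5a1 in collagen V, had 2544, 2381 and 2638 at FD19, 2146, 2600.5 and 2029 at FD22 and 2102, 2064 and 2525 at P1, with overlapping stages and a change of -0.17 ± 0.12 at FD22 (adjusted p = 0.406). Col24a1, a minor fibrillar chain, was dim at 51.2, 46.7 and 45.4 at FD19, 53.2, 41.3 and 57.8 at FD22 and 28.9, 30.3 and 34.8 at P1 and did not pass (0.07 ± 0.22).

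Col27a1, a fibrillar chain best known from cartilage, had total signals of 411, 296 and 261 at FD19, 209, 131 and 122 at FD22 and 98.7, 96.1 and 63.3 at P1. Every FD22 array lay below every FD19 array, and every P1 array below every FD22 array. It fell by 1.05 ± 0.30 from FD19 to FD22 (adjusted p = 0.0203). Col27a1 did not pass without FD19 lysate 1 or FD22 lysate 3 (adjusted p from 0.0942 to 0.108). Of 12 cartilage markers 5 fell and 0 rose over the same interval, with a summed total signal of 1697.5 to 2967.7 at FD19 and 490.4 to 830.6 at FD22. From FD22 to P1 none of them passed, their sum was 600.3 to 834.6 at P1 and 9 of the 12 had changes above 0, while the P1 signals of Col27a1 were lower still. No cartilage marker was at 0 on all 3 arrays of any group, and the part of these markers in the change of Col27a1 was not tested.

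Collagen IV chains differed among themselves. Col4a1 and Col4a2, the pair found in nearly all basement membranes, had total signals of 2093, 1880.1 and 1859 at FD19, 3007, 2634 and 2750.3 at FD22 and 3198, 2907 and 3005 at P1 for Col4a1. Those of Col4a2 were 1456, 953 and 1126 at FD19, 1996, 1574 and 1748 at FD22 and 2211, 1889.5 and 1839 at P1. For both genes every array of FD22 and P1 was above every array of FD19. Col4a1 rose by 0.52 ± 0.13 (adjusted p = 0.00719), while Col4a2, at 0.60 ± 0.22, did not pass (adjusted p = 0.0684). Col4a1 lost its call with only the arrays numbered 2 and 3 (adjusted p = 0.0554). The second probe set of Col4a1 gave 0.31 ± 0.15 and did not pass (adjusted p = 0.187).

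The other chains of collagen IV have a more restricted distribution. Col4a5 had 1234, 1521 and 1334 at FD19, 1542, 1688 and 1465 at FD22 and 1217, 1287 and 1524 at P1, with overlap between FD19 and FD22 (0.20 ± 0.13, adjusted p = 0.348). Its neighbour Col4a6 had 187, 219 and 215 at FD19, 159.5, 177 and 105 at FD22 and 105, 111 and 101 at P1, and each FD22 array lay below each FD19 array. It fell by 0.50 ± 0.16 (adjusted p = 0.0418), and its second probe set fell by 0.77 ± 0.25 (adjusted p = 0.0390). This call of Col4a6 ended without FD19 lysate 1, 2 or 3 or FD22 lysate 1 or 3 or P1 lysate 1, 2 or 3, with no filter on signal, or with only the arrays numbered 2 and 3 (adjusted p from 0.0503 to 0.209). Col4a4, a chain of the networks of kidney and lung, was dim: 16.4, 1.9 and 16.2 at FD19, 31.8, 29.4 and 19.5 at FD22 and 40.4, 41.5 and 56.8 at P1. Its FD22 arrays lay above those of FD19, but the change of 1.07 ± 0.39 did not pass (adjusted p = 0.0680).

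Among the laminins the beta chains moved in opposite directions. Lamb1, the beta chain of the embryonic laminins, had total signals of 908, 758 and 797 at FD19, 463, 572 and 536 at FD22 and 524, 660.4 and 541 at P1. Lamb2, the beta chain that takes its place in many mature basement membranes, had 431, 260.3 and 252 at FD19, 720.3, 408 and 603 at FD22 and 749.5, 708 and 510.2 at P1. Lamb1 was lower on every FD22 array than on any FD19 array and fell by 0.65 ± 0.12 (adjusted p = 0.00126), a call kept under all 19 alternative settings. Lamb2 rose by 0.87 ± 0.23 (adjusted p = 0.0130), although its FD19 array 1 lay above its FD22 array 2. The call of Lamb2 was lost without FD19 lysate 2 or 3 or FD22 lysate 1 or 3 (adjusted p from 0.0505 to 0.0753).

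Lamb3, the beta chain of the epithelial laminin under hemidesmosomes, had 183, 142 and 207 at FD19, 246, 337 and 250.5 at FD22 and 279, 272 and 210 at P1, with no FD22 array as low as any of FD19. It rose by 0.63 ± 0.19 (adjusted p = 0.0274). Lamb3 did not pass without FD19 lysate 1 or 2 or FD22 lysate 2, or with median centring (adjusted p from 0.0634 to 0.134). Lama2, the alpha chain best known from muscle and mesenchymal basement membranes, had 129, 144 and 153 at FD19, 228, 231 and 187 at FD22 and 219, 180.1 and 176 at P1, and its FD22 arrays were all above those of FD19. It rose by 0.58 ± 0.18 (adjusted p = 0.0299). Lama2 lost its call without FD19 lysate 1, 2 or 3 or FD22 lysate 1 or 2, with median centring, or with only the arrays numbered 2 and 3 (adjusted p from 0.059 to 0.136).

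Lamc1, the gamma chain shared by most laminins, had 1449, 1679 and 1412 at FD19, 1440.1, 1552 and 1699.8 at FD22 and 1959, 1706 and 1658 at P1, with overlapping stages and a change of 0.05 ± 0.13 (adjusted p = 0.861). Lama5, the main alpha chain of the mature epithelial and vascular basement membrane, had 893, 656 and 616 at FD19, 865, 635 and 727 at FD22 and 954, 1037 and 831 at P1 and a change of 0.05 ± 0.16 (adjusted p = 0.885). Lama1, Lama3, Lama4 and Lamc3 did not pass either, with changes between -0.33 and 0.12. The median over the 10 laminins was 0.05, and -0.02 with median centring of the arrays.

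Col18a1, whose C-terminal fragment is known as endostatin, had total signals of 592, 365 and 499 at FD19, 97.3, 99.5 and 71.9 at FD22 and 177, 177 and 86.1 at P1. All FD19 arrays were at least 365 and all later arrays at most 177. It fell by 2.35 ± 0.29 at FD22 (adjusted p = 1.7e-05), the largest change of any member in this comparison, and its second probe set fell by 1.72 ± 0.33 (adjusted p = 0.00113). The related Col15a1 did not pass (0.15 ± 0.25, adjusted p = 0.758).

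Collagen VI forms beaded microfibrils around cells. Its chain Col6a6 rose by 0.77 ± 0.18 (adjusted p = 0.00492), with total signals of 83.4, 97.4 and 85.5 at FD19, 136, 154 and 176 at FD22 and 87.6, 110.5 and 129.6 at P1. The FD22 arrays were the highest of the 3 stages, above all FD19 and P1 arrays. Col6a1, Col6a2, Col6a3 and Col6a5 stood at 0.14, 0.26, -0.08 and 0.62 and did not pass. The second probe set of Col6a2 rose by 0.94 ± 0.31 (adjusted p = 0.0441), but all its FD19 signals lay below the threshold on signal. Col6a1 had 1549, 1208 and 1292 at FD19, 1531, 1301 and 1634 at FD22 and 2200.5, 1760.2 and 1825 at P1, and Col6a3, its long partner chain, had 2869, 2473 and 2669 at FD19, 2606, 2475 and 2500.1 at FD22 and 2899, 2885 and 2787 at P1.

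The fibril-associated collagens XII and XIV coat the surface of fibrils. Col12a1 had total signals of 181, 176 and 162 at FD19, 93.9, 105 and 122 at FD22 and 201, 192 and 115 at P1 and fell by 0.67 ± 0.19 at FD22 (adjusted p = 0.0199), with no overlap between FD19 and FD22. This call of Col12a1 ended without FD19 lysate 1 or 2 or FD22 lysate 1 or 2, or with only the arrays numbered 2 and 3 (adjusted p from 0.055 to 0.132). Col14a1 had 1776, 1649 and 1703 at FD19, 1166, 1437 and 1300.3 at FD22 and 1054, 969.9 and 917 at P1 and fell by 0.40 ± 0.11 (adjusted p = 0.0228), again without overlap. The call of Col14a1 was lost without FD19 lysate 1, 2 or 3 or FD22 lysate 1 or 3, with only the arrays numbered 2 and 3, with quantile normalization, with the mean of its probe sets, or without a variance trend (adjusted p from 0.0507 to 0.126). Its second probe set gave -0.17 ± 0.14 (adjusted p = 0.454). Col16a1, with 469.7, 428 and 401 at FD19, 414, 423 and 447 at FD22 and 431, 394 and 423 at P1, overlapped between all stages.

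**Figure D2:**
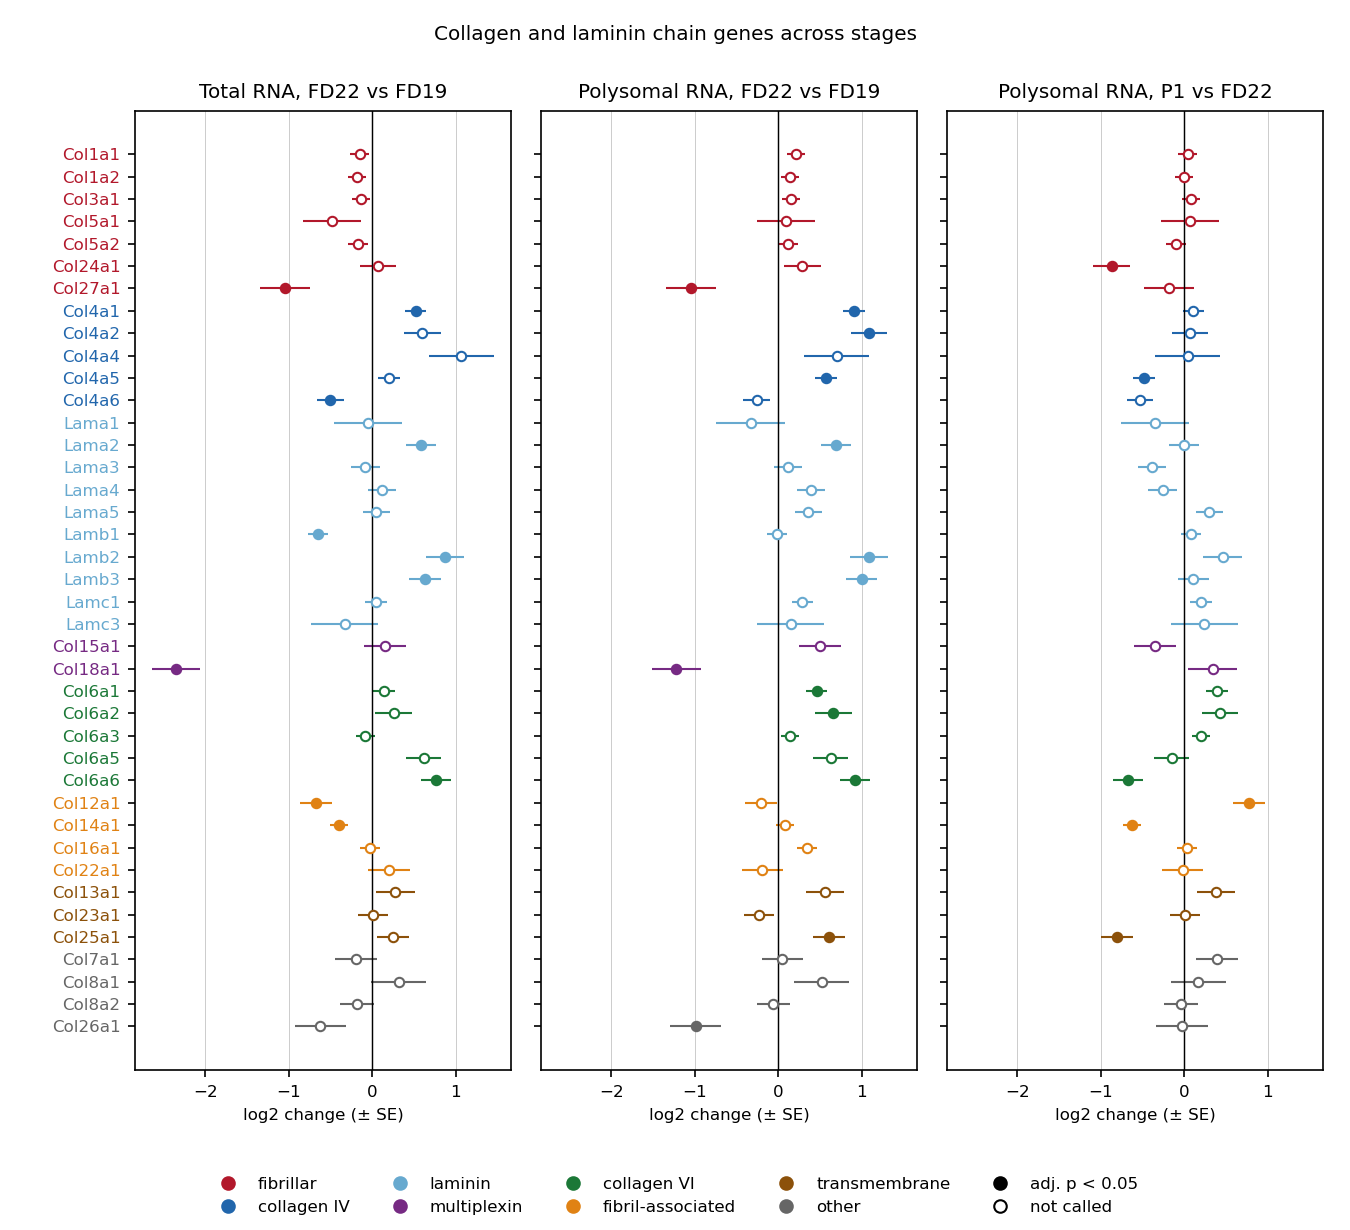
Log2 change (points, with the SE of limma as bars) of each of the 40 tested genes, coloured by class, in total RNA at FD22 against FD19, in polysomal RNA at FD22 against FD19, and in polysomal RNA at P1 against FD22. Filled points passed an adjusted p of 0.05: 11, 13 and 6 genes, with Col18a1 lowest in the first panel at -2.35.

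Polysomal RNA was compared between FD22 and FD19 to ask how the levels of these mRNAs in large polysomes changed. Such a level also follows the total amount of an mRNA, and the ratio to total RNA is treated below. More members rose than fell: collagen IV chains Col4a1, Col4a2 and Col4a5, the laminin chains Lama2, Lamb2 and Lamb3, the collagen VI chains Col6a1, Col6a2 and Col6a6 and the transmembrane chain Col25a1 rose, while Col18a1, Col27a1 and Col26a1 fell. These 10 rises and 3 falls of 40 compare with 10.1% of all genes higher and 9.56% lower (19.7% in all). Without FD19 lysate 1 or without FD19 lysate 3 the 13 calls became 8. The median change was 0.25 over the members and -0.02 over all genes tested. All 6 basement membrane chains that passed of 15 were higher (median 0.39), as were all 3 that passed of 5 in collagen VI (median 0.63), whereas 1 of 7 fibrillar chains passed, Col27a1, and it fell (median 0.14).

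Col4a1 had polysomal signals of 837, 758 and 870.4 at FD19, 1710.3, 1316 and 1649.8 at FD22 and 1673, 1403 and 1976 at P1. Col4a2 had 506, 293 and 377 at FD19, 1049, 606 and 866 at FD22 and 1101, 680.3 and 854 at P1. In both genes all FD22 arrays lay above all FD19 arrays. Col4a1 rose by 0.91 ± 0.13, which is 1.88-fold (adjusted p = 7.6e-05), and Col4a2 by 1.09 ± 0.22, which is 2.13-fold (adjusted p = 0.00192). The second probe set of Col4a1 rose by 0.93 ± 0.15 (adjusted p = 0.000297). Col4a5 had 649.6, 749.6 and 721 at FD19, 1130.3, 916 and 1108 at FD22 and 757, 648 and 862 at P1 and rose by 0.57 ± 0.13 (adjusted p = 0.00578). Col4a5 did not pass with only the arrays numbered 2 and 3 (adjusted p = 0.104). Col4a6, the other gene of that head-to-head pair, had 149, 158 and 150 at FD19, 128, 140.2 and 112 at FD22 and 89.4, 85.5 and 83.1 at P1 and did not pass (-0.26 ± 0.16, adjusted p = 0.327).

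Lamb2 had polysomal signals of 303, 262 and 368 at FD19, 722, 506 and 793 at FD22 and 883, 958 and 907 at P1, and Lamb3 had 131, 101 and 134 at FD19, 196, 275 and 282 at FD22 and 308, 245 and 256 at P1. In both genes every FD22 array was above every FD19 array. Lamb2 rose by 1.09 ± 0.23 (adjusted p = 0.00272) and Lamb3 by 1.00 ± 0.19 (adjusted p = 0.00111). Lama2, with 165, 207 and 214 at FD19, 351, 249.1 and 359.6 at FD22 and 391, 310.4 and 258 at P1, rose by 0.69 ± 0.18 (adjusted p = 0.0114). Lama2 lost its call without FD19 lysate 1 or FD22 lysate 1 or 3, or with only the arrays numbered 2 and 3 (adjusted p from 0.0518 to 0.124). Lamb1, whose total signal had fallen, had 672, 735 and 697 at FD19, 644, 668 and 770.2 at FD22 and 758, 748 and 689.8 at P1 on polysomes, with full overlap between stages and a change of -0.02 ± 0.12 (adjusted p = 0.953). Lamc1 had 1244, 1065 and 1110.4 at FD19, 1319.7, 1217 and 1664 at FD22 and 1846, 1471 and 1504 at P1 (0.29 ± 0.13, adjusted p = 0.157), and Lama5 had 982, 754 and 866 at FD19, 1239, 945 and 1168 at FD22 and 1406, 1329 and 1369.7 at P1 (0.36 ± 0.16, adjusted p = 0.128).

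Of the 7 fibrillar chains, 6 had fitted polysomal changes above 0 at FD22, and none of these 6 passed. Col1a1 had polysomal signals of 2361, 1992 and 2044 at FD19, 2585, 2138 and 2679 at FD22 and 2871, 2399.6 and 2345 at P1 and a change of 0.21 ± 0.11 (adjusted p = 0.236). Col1a2 had 1926, 1979 and 2095 at FD19, 2029.5, 1985 and 2639 at FD22 and 2349, 2194 and 2050.4 at P1 and Col3a1 had 2007, 2301 and 2429 at FD19, 2402, 2378 and 2701 at FD22 and 2728, 2376 and 2804 at P1, with changes of 0.14 ± 0.11 and 0.15 ± 0.11. FD19 and FD22 overlapped for all 3 genes. Col27a1 had 188, 126 and 144 at FD19, 108, 36.8 and 86.5 at FD22 and 70.7, 60.7 and 54.0 at P1 and fell by 1.04 ± 0.30 (adjusted p = 0.0221). This call of Col27a1 ended without FD19 lysate 1 or 3 or FD22 lysate 2 (adjusted p from 0.0531 to 0.125). Its FD22 array 2 was the lowest of the stage.

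Col18a1 fell on polysomes by 1.22 ± 0.29 (adjusted p = 0.00627), with signals of 424, 281 and 234 at FD19, 153, 97 and 138 at FD22 and 234, 139 and 132 at P1. Its second probe set fell by 1.5 ± 0.33 (adjusted p = 0.00362). Among the collagen VI chains Col6a6 had 72.1, 76.4 and 102 at FD19, 173, 141 and 173 at FD22 and 111, 87.1 and 101 at P1 and rose by 0.92 ± 0.18 (adjusted p = 0.00120). Col6a1 had 1219.7, 967 and 1055 at FD19, 1602, 1331 and 1518 at FD22 and 2074, 1839 and 1909 at P1 and rose by 0.46 ± 0.13 (adjusted p = 0.0212). The call of Col6a1 was lost without FD19 lysate 2 or 3 or FD22 lysate 1 or 3, or with median centring (adjusted p from 0.0562 to 0.119). Col6a2 had 422, 354 and 358 at FD19, 777, 449.9 and 617 at FD22 and 1132, 623 and 752 at P1 and rose by 0.66 ± 0.22 (adjusted p = 0.0490). Col6a2 did not pass without FD19 lysate 1, 2 or 3 or FD22 lysate 1 or 3 or P1 lysate 3, with a larger constant, with median centring, with no filter on signal, with only the arrays numbered 2 and 3, or without a variance trend (adjusted p from 0.0502 to 0.188).

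The transmembrane chain Col25a1 had polysomal signals of 134, 156 and 141 at FD19, 213, 231 and 221 at FD22 and 143, 118 and 112 at P1 and rose by 0.61 ± 0.19 (adjusted p = 0.0344). Col25a1 lost its call without FD19 lysate 1, 2 or 3 or FD22 lysate 2, with median centring, or with only the arrays numbered 2 and 3 (adjusted p from 0.0623 to 0.146). Col26a1 had 71.5, 68.3 and 58.6 at FD19, 36.6, 22.8 and 33.5 at FD22 and 41.0, 47.0 and 12.5 at P1 and fell by 0.99 ± 0.31 (adjusted p = 0.0353). This call of Col26a1 ended without FD19 lysate 1, 2 or 3 or FD22 lysate 2 or 3, with no filter on signal, with only the arrays numbered 2 and 3, or with quantile normalization (adjusted p from 0.0589 to 0.131). Both had every FD22 array on one side of every FD19 array, and all FD22 signals of Col26a1 lay below the threshold on signal, so the size of its fall is imprecise. With the array number as a block, where same-numbered polysomal arrays of FD19 and FD22 deviated together, 18 members passed in place of 13. Col13a1, Col16a1, Col6a5, Lama4 and Lama5 were then called as well, all higher. The share of all genes passing with this block is not given, so the 18 have no background.

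**Figure D3:**
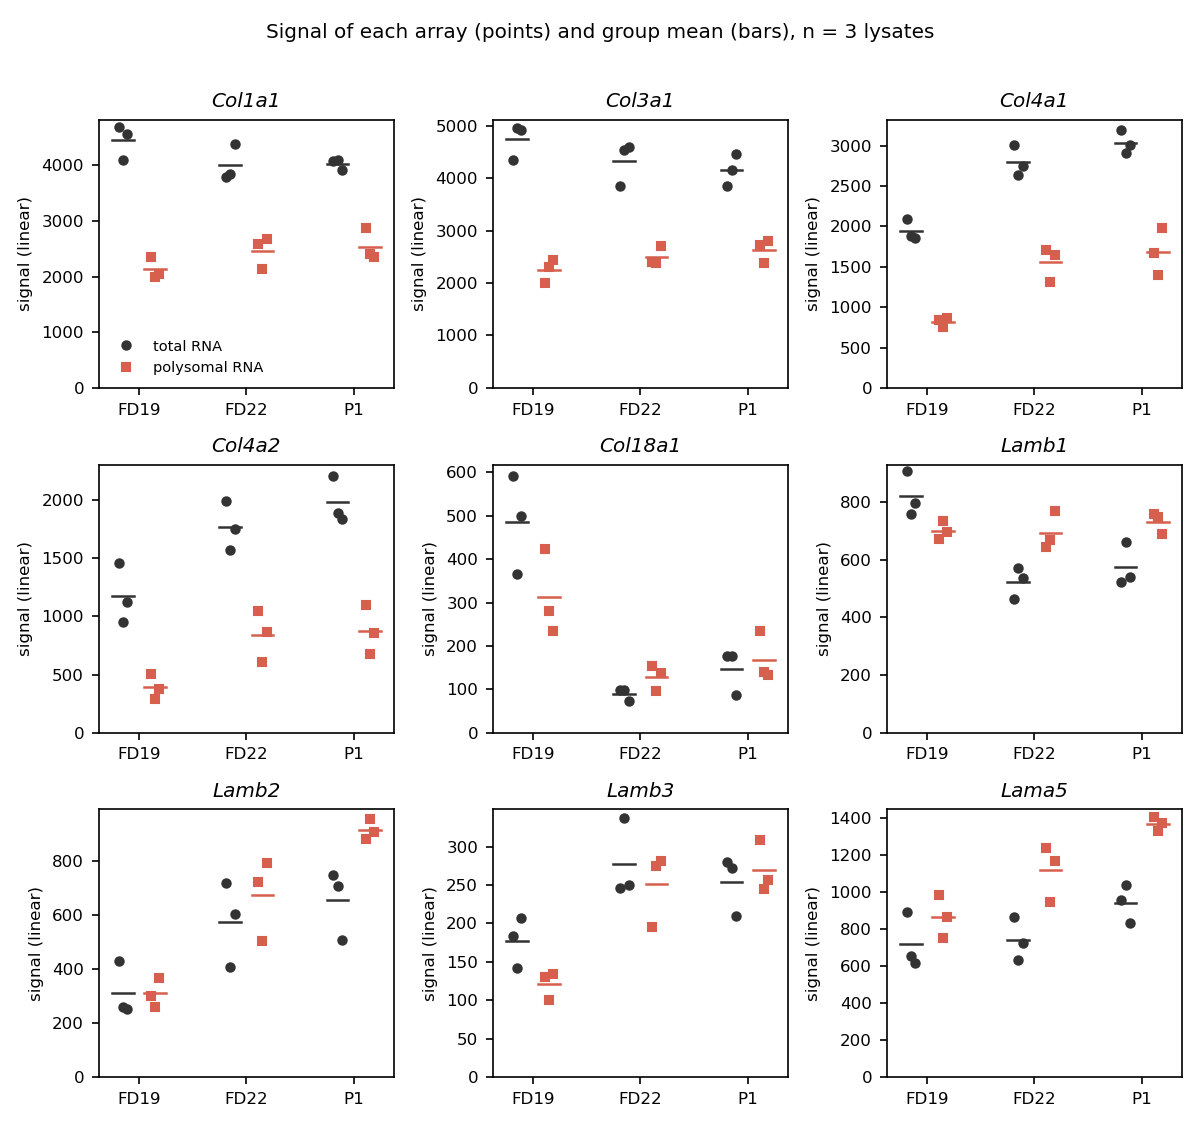
Linear signal of 9 member genes on each array (points: black circles total RNA, red squares polysomal RNA; bars: group means; n = 3 lysates per group) at FD19, FD22 and P1. Col4a1 and Col4a2 step up between FD19 and FD22 in both kinds of RNA with the polysomal arrays below the total ones, Col18a1 steps down, and Lamb1 is lower at FD22 than at FD19 in total RNA, with polysomal signals between 644 and 770 on all 9 arrays.

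The other values of members on polysomes were these. Col5a1 had 641, 312 and 303 at FD19, 553, 313 and 424 at FD22 and 659.8, 362 and 355 at P1, with array 1 again the highest of each group. Col5a2 had 1167, 1129 and 1184 at FD19, 1299.9, 1157 and 1338 at FD22 and 1261, 1015 and 1267 at P1, with overlap between all stages. Col6a3 had 2407, 2144 and 2295 at FD19, 2611, 2451 and 2466 at FD22 and 2616, 3477 and 2616 at P1, and its P1 array 2 stood above all others. Col6a5 was dim at 41.1, 43.9 and 56.1 at FD19, 62.6, 79.8 and 85.4 at FD22 and 59.8, 85.3 and 60.1 at P1, and its FD22 arrays lay above those of FD19. Col16a1 had 326, 289 and 312 at FD19, 388, 344 and 453 at FD22 and 405, 381 and 414 at P1, again with every FD22 array above every FD19 array. Col4a4 had 11.9, 36.2 and 26.3 at FD19, 43.4, 31.9 and 48.8 at FD22 and 44.8, 39.8 and 41.8 at P1, and Col23a1 had 73.2, 72.0 and 67 at FD19, 55.8, 80.2 and 46.6 at FD22 and 54.3, 72.3 and 54.1 at P1. FD19 and FD22 overlapped for both. In total RNA Col25a1 had 164, 182 and 148 at FD19, 244, 236 and 132 at FD22 and 176, 194 and 148 at P1, with overlapping stages. Col26a1 had 106, 79.9 and 85.9 at FD19, 54.6, 53.2 and 62.1 at FD22 and 63.2, 48.0 and 35.9 at P1 there, and its FD19 arrays lay above all later ones.

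Some members passed in no stage comparison. Lama4 had total signals of 509.9, 338 and 438 at FD19, 484, 443 and 456 at FD22 and 513, 419.8 and 366 at P1, and its polysomal signals were 562, 439.9 and 483 at FD19, 693, 625 and 629.9 at FD22 and 681, 470 and 494 at P1. Lama3, the alpha chain of the epithelial laminin, had total signals of 160.1, 196 and 186 at FD19, 158, 161 and 193 at FD22 and 146, 159 and 154 at P1. In total RNA the FD19 and FD22 arrays overlapped for both genes, whereas on polysomes every FD22 array of Lama4 lay above every FD19 array. Col15a1 had 313, 247 and 180 at FD19, 309.8, 222 and 277 at FD22 and 372, 272 and 200.3 at P1 in total RNA and 224, 168 and 156 at FD19, 261, 222 and 295 at FD22 and 261, 221 and 141 at P1 on polysomes. Col8a1, a short-chain collagen of vessels, had total signals of 46.0, 33.0 and 46.2 at FD19, 52.0, 45.1 and 63.7 at FD22 and 18.8, 39.2 and 77.2 at P1, with wide spread within stages. Over Lama1, Lama3, Lama4, Lamc3, Col15a1, Col22a1, Col7a1, Col8a1 and Col8a2, the fitted changes of all 6 stage comparisons lay between -0.68 (Lama1, P1 against FD19 on polysomes) and 0.69 (Col8a1, the same comparison).

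Markers of other cell types changed over the same interval. Of 9 endothelial markers 7 rose in total RNA, and their summed signal went from 3328.8 to 3497.8 at FD19 to 5458.7 to 6107.9 at FD22. All 7 markers of alveolar type I cells rose (summed signal 3734.1 to 4357.9 at FD19 and 10702.8 to 11352.1 at FD22). Of 12 markers of lung mesenchyme 2 rose and 2 fell, and their summed signals overlapped (9314.4 to 10541.8 at FD19 and 10181.5 to 10966.5 at FD22). Smooth muscle markers fell in 4 of 8 cases (5599.9 to 6990.9 and 4031.1 to 4467.0). Of 8 type II cell markers 7 rose (14835.1 to 15991.3 and 27975.8 to 33946.9), and all 5 leukocyte markers rose. Of 6 general epithelial markers, however, 1 rose and 3 fell (5764.1 to 6495.7 and 5372.2 to 5936.6). None of these markers was at 0 on all 3 arrays of any group. Endothelium and epithelium make collagen IV and laminins, and the part of these cells in the changes of the chains was not tested.

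The interval from FD22 to P1 covered birth. No member passed in total RNA by limma, although 10 of 40 had an unadjusted p under 0.05, 4 of them higher. By adjusted p, 4.94% of all genes tested passed (2.62% higher and 2.31% lower). Their share at the unadjusted threshold is not given, so the 10 members have no background. The median change was -0.03 over the members and -0.05 over all genes. Col1a1 stood at 0.01 ± 0.11, Col3a1 at -0.06 ± 0.11, Col4a1 at 0.12 ± 0.13, Col4a2 at 0.16 ± 0.22, Lamb1 at 0.13 ± 0.12 and Lamc1 at 0.18 ± 0.13. The mean of the basement membrane class changed by 0.25 ± 0.08 more than that of the fibrillar class, and by 0.09 more with Col1a1, Col1a2 and Col3a1 as the fibrillar class. The fibrillar mean includes Col27a1, its lowest chain here at -0.79, and the dim Col24a1. All P1 signals of Col24a1 lay below the threshold on signal, so what it adds is no support for a change of the class.

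On polysomes, 1 member rose and 5 fell from FD22 to P1, where 10.5% of all genes passed (4.74% higher and 5.79% lower). These 6 calls became 3 without FD22 lysate 1 or without P1 lysate 1, and 2 with only the arrays numbered 2 and 3. Col12a1 rose, and Col14a1, Col24a1, Col4a5, Col6a6 and Col25a1 fell. The median was 0.03 over the members and -0.03 over all genes. Col12a1 and Col14a1, which both bind fibril surfaces, went opposite ways by these probe sets. Col12a1 had polysomal signals of 134, 126 and 105 at FD19, 98.5, 99.8 and 113 at FD22 and 222, 159 and 171 at P1 and rose by 0.78 ± 0.19 (adjusted p = 0.0148), with each P1 array above each FD22 array. The call of Col12a1 was lost without FD22 lysate 1 or 2 or P1 lysate 1, or with only the arrays numbered 2 and 3 (adjusted p from 0.0521 to 0.155). Col14a1 had 1252, 1431 and 1445 at FD19, 1329, 1478 and 1541 at FD22 and 1061, 908 and 850.4 at P1 and fell by 0.63 ± 0.11 (adjusted p = 0.00236), without overlap, and it passed under every alternative setting. The second probe set of Col14a1 did not pass here (-0.16 ± 0.14, adjusted p = 0.551).

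Col4a5 fell by 0.48 ± 0.13 on polysomes at P1 (adjusted p = 0.0302), with signals of 648 to 862 at P1 and 649.6 to 749.6 at FD19. Col4a5 did not pass without FD19 lysate 3 or FD22 lysate 1 or 3 or P1 lysate 1 or 2, with median centring, with only the arrays numbered 2 and 3, or without a variance trend (adjusted p from 0.0554 to 0.179). Col6a6 fell by 0.68 ± 0.18 (adjusted p = 0.0215), and its signals at FD22 were above those at P1 on every array. Col6a6 lost its call without FD22 lysate 1 or 3 or P1 lysate 2 or 3, with only the arrays numbered 2 and 3, or with quantile normalization (adjusted p from 0.051 to 0.102). Col25a1 fell by 0.81 ± 0.19 (adjusted p = 0.0117). This call of Col25a1 ended without P1 lysate 3 (adjusted p = 0.0532). Col24a1 had 38.6, 50.8 and 44.2 at FD19, 41.3, 73.2 and 56.1 at FD22 and 23.7, 30 and 30 at P1 and fell by 0.87 ± 0.22 (adjusted p = 0.0196), with all P1 signals below the threshold on signal. It was tested only because of its brighter FD19 and FD22 arrays, so this fall is no support for a change of the fibrillar class. The call of Col24a1 was lost without FD22 lysate 2 or P1 lysate 1, or with only the arrays numbered 2 and 3 (adjusted p from 0.0585 to 0.101). Of these 4 genes, Col4a5, Col6a6 and Col25a1 had risen on polysomes from FD19 to FD22, and each rise and the later fall share the FD22 arrays.

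Over the whole interval, P1 against FD19, 7 members rose and 7 fell in total RNA (31.0% of all genes passed, 13.8% higher and 17.2% lower), and 13 rose and 5 fell on polysomes (34.3% of all genes, 15.6% higher and 18.8% lower). With the array number as a block, 18 members passed in place of 14 in total RNA, where same-numbered arrays of FD19 and P1 deviated together. The 4 added were Col24a1 (-0.53 ± 0.20, adjusted p = 0.0481), Col26a1 (-0.84 ± 0.29, adjusted p = 0.038), Col5a1 (-0.39 ± 0.14, adjusted p = 0.0366) and Lama5 (0.39 ± 0.12, adjusted p = 0.0203). Col24a1 was tested only because of its brighter FD19 and FD22 arrays, so its fall is no support for a change of the class. No share of all genes is given with this block, and the 31.0% is that without it. This comparison shares its FD19 arrays with that of FD22 against FD19. The medians were -0.06 in total RNA and 0.24 on polysomes for the members, and -0.06 and -0.04 for all genes. The 6 largest polysomal rises were those of Lamb2 (1.56 ± 0.23, adjusted p = 4.64e-05), Col4a2 (1.16 ± 0.22), Lamb3 (1.12 ± 0.19), Col6a2 (1.09 ± 0.22), Col4a1 (1.02 ± 0.13) and Col13a1 (0.95 ± 0.23). All 6 kept their call under every alternative setting. Lama5 also rose on polysomes, by 0.66 ± 0.16 (adjusted p = 0.00320), with each P1 array above each FD19 array. The remaining polysomal rises, of Col6a1, Lama2, Col12a1, Lamc1, Col16a1 and Col6a3, ran from 0.33 to 0.85.

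In total RNA the rises from FD19 to P1 were those of Lamb2 (1.07 ± 0.23, adjusted p = 0.00166), Col4a2 (0.76 ± 0.22), Col6a2 (0.66 ± 0.22), Col4a1 (0.64 ± 0.13), Col6a5 (0.64 ± 0.21), Col6a1 (0.51 ± 0.13) and Col4a4. For Col4a4 the fitted value was 1.75 ± 0.39 (adjusted p = 0.00222), but its FD19 and FD22 total signals were all below the threshold on signal, and it was tested only because of its brighter arrays, so this rise is no support for a change of the class. The falls were those of Col27a1 (-1.84 ± 0.30, adjusted p = 0.000129), Col18a1 (-1.73 ± 0.29), Col4a6 (-0.93 ± 0.16), Col14a1 (-0.80 ± 0.11), Col23a1 (-0.52 ± 0.18), Lamb1 (-0.51 ± 0.12) and Col1a2 (-0.31 ± 0.11, adjusted p = 0.0385). Col4a2 did not pass without FD19 lysate 2 or 3 (adjusted p from 0.0549 to 0.0612). Col6a2 lost its call without FD19 lysate 2 or 3 or P1 lysate 1 or 2, with median centring, with no filter on signal, or without a variance trend (adjusted p from 0.0505 to 0.142). This call of Col6a5 ended without FD19 lysate 1, 2 or 3 or P1 lysate 1, 2 or 3, with no filter on signal, or with only the arrays numbered 2 and 3 (adjusted p from 0.0507 to 0.172). The call of Col23a1 was lost without FD19 lysate 1, 2 or 3 or P1 lysate 1, 2 or 3, with no filter on signal, or with only the arrays numbered 2 and 3 (adjusted p from 0.0577 to 0.184). Lamb1 did not pass with only the arrays numbered 2 and 3 (adjusted p = 0.0834). Col1a2 lost its call without FD19 lysate 1 or 3 or P1 lysate 1, 2 or 3, with median centring, with no filter on signal, with only the arrays numbered 2 and 3, with quantile normalization, with the mean of its probe sets, or without a variance trend (adjusted p from 0.069 to 0.392). Col6a2 had total signals of 771, 530 and 539 at FD19, 856, 602 and 739.5 at FD22 and 1155, 916 and 823 at P1. Those of Col6a5 were 46.3, 65.9 and 64.8 at FD19, 77.3, 81.0 and 126 at FD22 and 89.9, 104 and 88.1 at P1. Col23a1, a transmembrane collagen, had 102, 105 and 87.1 at FD19, 97.8, 95.9 and 103 at FD22 and 67.8, 63.3 and 68.6 at P1, with every P1 array below every earlier one.

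Of all 40 genes, 13 passed in no stage comparison: Col1a1, Col3a1, Col5a1 and Col5a2 among the fibrillar chains, the laminins Lama1, Lama3, Lama4 and Lamc3, and Col15a1, Col22a1, Col7a1, Col8a1 and Col8a2. This holds without a block, since Col5a1 and Lama4 passed with the blocks by array number given above, and Col1a1 (0.25 ± 0.09, adjusted p = 0.0441) and Col3a1 (0.23 ± 0.08, adjusted p = 0.0361) with that block on polysomes for P1 against FD19, where the numbers did not pair the arrays. Falls on polysomes from FD19 to P1 were those of Col27a1 (-1.22 ± 0.30), Col26a1 (-1.02 ± 0.31), Col18a1 (-0.88 ± 0.29), Col4a6 (-0.79 ± 0.16) and Col14a1 (-0.55 ± 0.11). This call of Col26a1 ended without FD19 lysate 1 or 2 or P1 lysate 3, or with only the arrays numbered 2 and 3 (adjusted p from 0.0561 to 0.104). The call of Col18a1 was lost without FD19 lysate 1 or P1 lysate 2 or 3, with median centring, or with quantile normalization (adjusted p from 0.0507 to 0.146). For the polysomal rises of lower size, these losses were seen: that of Col12a1 without FD19 lysate 2 or 3 or P1 lysate 1, or with only the arrays numbered 2 and 3 (adjusted p from 0.0719 to 0.139), that of Col16a1 without FD19 lysate 2 or 3 or P1 lysate 1 or 3, or with only the arrays numbered 2 and 3 (adjusted p from 0.0734 to 0.131), that of Col6a3 without FD19 lysate 2 or 3 or P1 lysate 2, with no filter on signal, with quantile normalization, with the mean of its probe sets, or without a variance trend (adjusted p from 0.0549 to 0.79), that of Lama2 with only the arrays numbered 2 and 3 (adjusted p = 0.143) and that of Lamc1 without P1 lysate 1, or with the mean of its probe sets (adjusted p from 0.0504 to 0.0976). Col13a1, a transmembrane collagen of cell junctions with matrix, had polysomal signals of 415, 629 and 653 at FD19, 580.1, 823 and 1166 at FD22 and 814, 1119 and 1356 at P1, and its total signals were 409, 404 and 406 at FD19, 539, 471 and 480.5 at FD22 and 394, 554 and 549 at P1. Its total change from FD19 to P1, 0.27 ± 0.23, did not pass. Among genes with a second probe set, that of Col4a6 (-0.60 ± 0.25), Lamc1 (0.10 ± 0.20), Col6a3 (-0.19 ± 0.34) and Col14a1 (-0.14 ± 0.14) did not pass on polysomes for P1 against FD19. In total RNA those of Col14a1 (-0.25 ± 0.14) and Col1a2 (-0.13 ± 0.10) did not pass.

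The polysomal over total ratio compared the 2 RNAs of a stage, and asked which of these mRNAs were under- or over-represented on large polysomes. Unless the lysate is named as a block, the tests took the 2 RNAs of a lysate as unpaired. By the probe sets used, Col1a1, Col1a2, Col3a1, Col5a2, Col4a1, Col4a2 and Col4a5 had lower ratios at each of the 3 stages. The laminin chains Lama2 and Lama5 had higher ones at FD22 and P1, as did Col13a1. Averaged over the 3 stages, 16 of 40 members had a lower and 4 a higher ratio, where 22.2% of all genes tested were lower and 24.9% higher (47.2% in all). The median mean ratio was -0.20 over the members and 0.00 over all genes. The lower ones included 6 of 7 fibrillar chains (median -0.83), 4 of 5 collagen IV chains (median -0.78) and Lamc1, and the higher ones were Lama2, Lama4, Lama5 and Col13a1.

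The scaling of the arrays bears on these splits. Centring each array on its median raised the median ratio of all probe sets by 0.17 at FD19, 0.23 at FD22 and 0.20 at P1 and for the mean ratio, and left 8 members higher and 9 lower for the mean ratio, while quantile normalization gave 6 and 13. The fibrillar median stayed below 0, at -0.63 with centring and -0.44 with quantile normalization, and the collagen IV median at -0.58 and -0.83. The laminin median of the mean ratio was 0.16, 0.35 with centring and 0.13 with quantile normalization.

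Within stages, 12 members were lower and 0 higher at FD19 (9.53% of all genes lower and 13.0% higher, 22.5% in all), 9 lower and 4 higher at FD22 (6.86% and 9.71%, 16.6% in all), and 7 lower and 3 higher at P1 (8.52% and 12%, 20.5% in all). Of the calls without a block, 8 of 12 at FD19, 3 of 13 at FD22 and 7 of 10 at P1 held under every alternative setting. Without FD22 lysate 3 the 13 calls at FD22 became 8. The member medians were -0.36, -0.09 and -0.14, and those of all genes 0.00, 0.01 and 0.01. The split with centring was 8 lower and 1 higher at FD19, 6 and 6 at FD22, and 6 and 4 at P1. With the lysate as a block, which is the pairing of the design, 20 members passed at FD19, 19 lower and 1 higher. Col12a1, Col14a1, Col15a1, Col18a1, Col4a6, Col6a1 and Lamb3 were then called lower as well, and Lama2 higher. The block also called Col26a1, Col5a1 (lower) and Lama4 (higher) at FD22, and Col15a1, Col5a1 (lower), Lama4, Lamb1 and Lamb2 (higher) at P1. For the mean ratio it called Col15a1, Lama1 and Lamb3 lower and Lamb1 and Lamb2 higher in addition. The shares of all genes above are those without a block. None is given with the lysate block, so the 20 members cannot be set against the 22.5%.

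Besides those of the collagen I and III chains given below, some calls within a stage were lost under other settings. The calls lost at FD19 were that of Col16a1 without FD19 lysate 1 or 2, with median centring, or with only the arrays numbered 2 and 3 (adjusted p from 0.0557 to 0.122) and that of Col27a1 without FD19 lysate 1, 2 or 3, or with median centring (adjusted p from 0.0601 to 0.128). For Col6a2 the loss came without FD19 lysate 1, 2 or 3, with median centring, with no filter on signal, with the mean of its probe sets, or without a variance trend (adjusted p from 0.0535 to 0.17). For Lamc1 the loss came without FD19 lysate 1, 2 or 3, with median centring, with no filter on signal, with quantile normalization, with the mean of its probe sets, or without a variance trend (adjusted p from 0.053 to 0.417). Those at FD22 were that of Col4a5 without FD22 lysate 2, or with median centring (adjusted p from 0.0877 to 0.105), that of Col27a1 without FD22 lysate 2, or with median centring (adjusted p from 0.0896 to 0.131) and that of Lama5 without FD22 lysate 3 (adjusted p = 0.119). For Col13a1 the loss came without FD19 lysate 2 or 3 or FD22 lysate 2 or 3 or P1 lysate 2, with no filter on signal, with quantile normalization, or without a variance trend (adjusted p from 0.0514 to 0.325). For Lama2 the loss came without FD19 lysate 2 or 3 or FD22 lysate 1 or 3 or P1 lysate 2, with no filter on signal, with only the arrays numbered 2 and 3, or without a variance trend (adjusted p from 0.0529 to 0.356). For Lamb1 the loss came without FD19 lysate 2 or 3 or FD22 lysate 1, 2 or 3, with only the arrays numbered 2 and 3, with quantile normalization, or without a variance trend (adjusted p from 0.0522 to 0.188). For Col23a1 the loss came without FD22 lysate 1 or 3, with median centring, with only the arrays numbered 2 and 3, or with quantile normalization (adjusted p from 0.0539 to 0.174). Those at P1 were that of Lama2 without P1 lysate 2 (adjusted p = 0.072) and that of Lama5 without P1 lysate 1, 2 or 3 (adjusted p from 0.053 to 0.162). Of the 4 members higher at FD22, Col13a1, Lama2 and Lamb1 were thus each lost under 8 of 19 settings.

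Col4a2 had the lowest mean ratio of any member, and 0.6% of all genes tested had a lower one. Its log2 ratios in the 3 lysates were -1.51, -1.68 and -1.56 at FD19, -0.92, -1.37 and -1.01 at FD22 and -1.0, -1.47 and -1.10 at P1. All 9 were below 0, and the mean ratio was -1.29 ± 0.13 (adjusted p = 2.58e-07). For Col4a1 they were -1.32, -1.31 and -1.09 at FD19, -0.81, -1.0 and -0.74 at FD22 and -0.93, -1.05 and -0.60 at P1, with a mean ratio of -0.98 ± 0.07 (adjusted p = 6.47e-09) and 1.7% of genes below it. On a linear scale the group ratios of Col4a1 were 0.42 at FD19, 0.56 at FD22 and 0.55 at P1, and those of Col4a2 were 0.33, 0.47 and 0.44. The second probe set of Col4a1 gave -1.05 ± 0.09. Col4a5, with -0.92, -1.02 and -0.88 at FD19, -0.45, -0.88 and -0.40 at FD22 and -0.68, -0.98 and -0.82 at P1, was lower by 0.78 ± 0.08 (adjusted p = 2.47e-07), and Col4a6 had -0.30 ± 0.09 (adjusted p = 0.0159). Col4a6 did not pass without FD19 lysate 3, with median centring, with only the arrays numbered 2 and 3, or with quantile normalization (adjusted p from 0.0519 to 0.454). The second probe set of Col4a6 gave -0.93 ± 0.14 (adjusted p = 3.98e-05).

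Col1a1 had log2 ratios of -0.99, -1.04 and -1.16 at FD19, -0.55, -0.84 and -0.71 at FD22 and -0.50, -0.77 and -0.74 at P1. Col1a2 had -1.08, -0.85 and -0.98 at FD19, -0.69, -0.84 and -0.42 at FD22 and -0.41, -0.56 and -0.60 at P1, and Col3a1 had -1.11, -1.11 and -1.01 at FD19, -0.68, -0.93 and -0.76 at FD22 and -0.49, -0.81 and -0.67 at P1. Every lysate was below 0 for all 3 genes. The mean ratios were -0.81 ± 0.06 (adjusted p = 1.61e-08) for Col1a1, -0.71 ± 0.06 (adjusted p = 5.71e-08) for Col1a2 and -0.84 ± 0.06 (adjusted p = 6.59e-09) for Col3a1. The share of genes with a lower mean ratio was 3.2%, 4.8% and 2.8%. With quantile normalization the ratio at FD22 no longer passed for these 3 genes (adjusted p of 0.32, 0.101 and 0.0987), while at FD19 it did. Col1a2 at P1 was lost with median centring (adjusted p = 0.0658). The second probe set of Col1a1 had a mean ratio of -0.52 ± 0.08 and did not pass at FD22 (-0.40 ± 0.13, adjusted p = 0.0505). That of Col1a2 had -0.83 ± 0.06 and passed at each stage.

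Col5a1, with log2 ratios of -1.52, -1.40 and -1.55 at FD19, -0.92, -1.08 and -0.76 at FD22 and -1.01, -0.90 and -0.91 at P1, was lower by 1.12 ± 0.20 in the mean ratio (adjusted p = 0.000227). The lysates agreed closely although its signals differed between arrays numbered 1 and the others. At FD22 and P1 it passed only with the lysate as a block (-0.92 ± 0.10, adjusted p = 3.74e-05, and -0.94 ± 0.10, adjusted p = 3.15e-05). Col5a2 had log2 ratios of -1.12, -1.07 and -1.15 at FD19, -0.72, -1.16 and -0.60 at FD22 and -0.73, -1.02 and -0.99 at P1, and a mean ratio of -0.95 ± 0.07 (adjusted p = 5.25e-09). Col27a1 had -1.10, -1.20 and -0.84 at FD19, -0.92, -1.69 and -0.48 at FD22 and -0.45, -0.62 and -0.21 at P1, and a mean ratio of -0.83 ± 0.17 (adjusted p = 0.000705). All lysates of both genes were below 0. Col24a1 was the fibrillar chain that did not pass (-0.04 ± 0.13). In the class means the basement membrane chains had a mean ratio higher than that of the fibrillar chains by 0.63 ± 0.08 (SD within a stage, n = 3), and by 0.46 with quantile normalization.

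**Figure D4:**
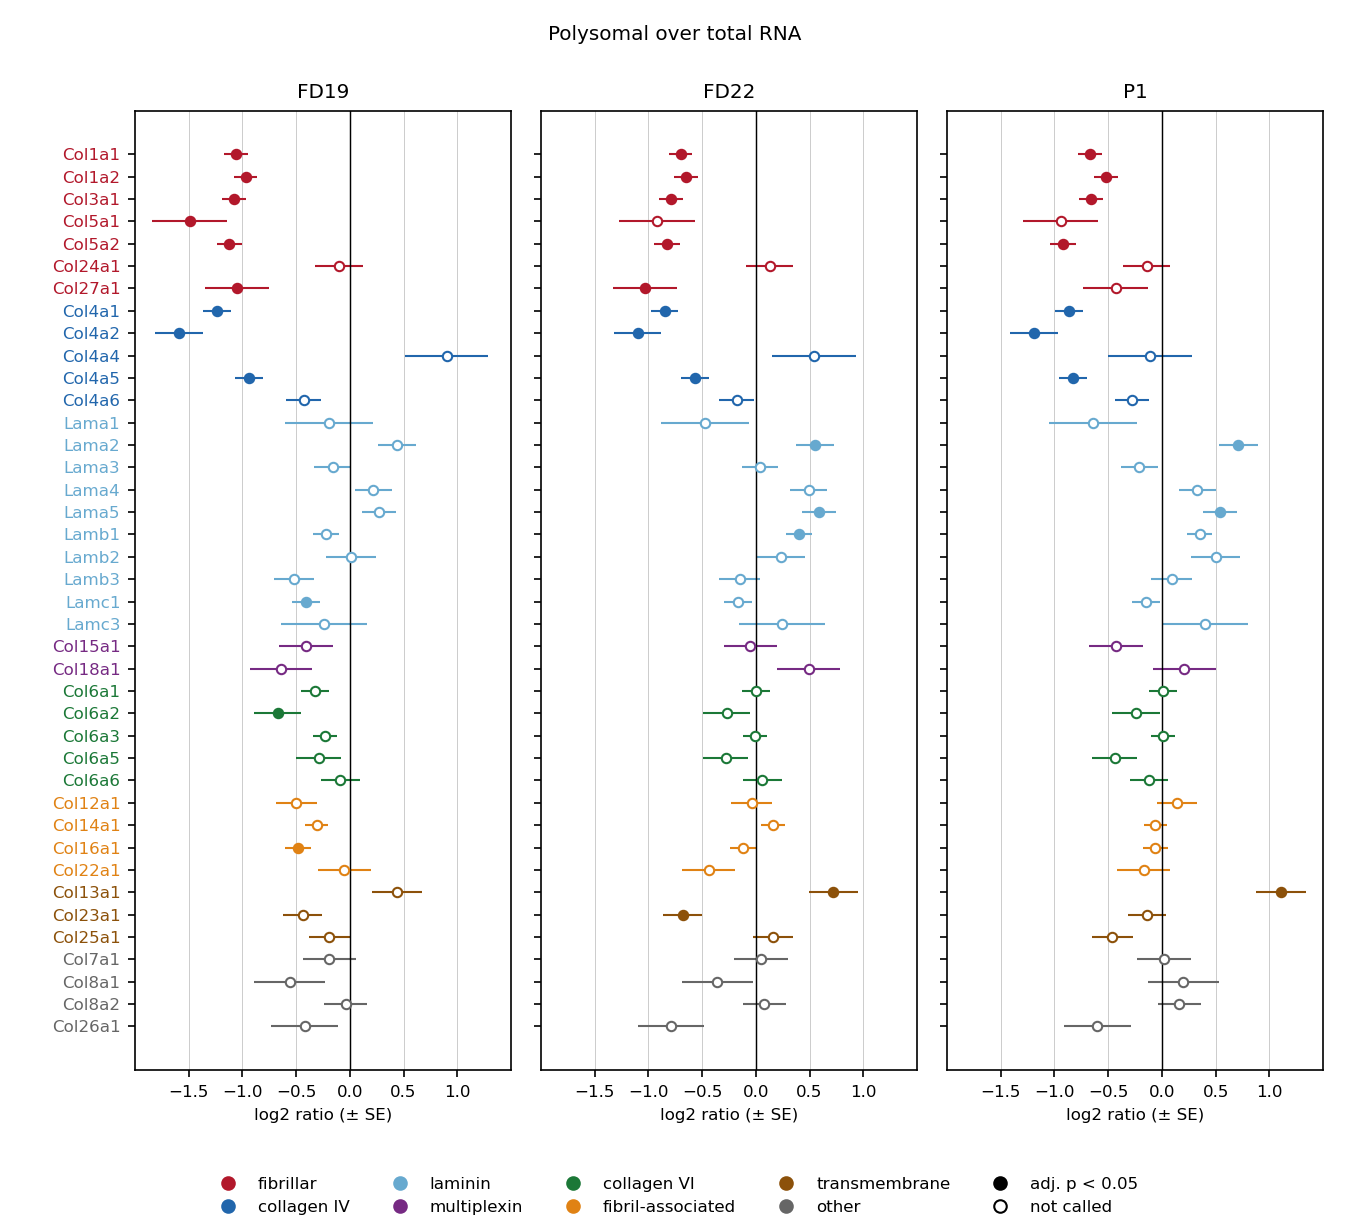
Log2 polysomal over total ratio (points, with the SE of limma as bars) of the 40 tested genes at FD19, FD22 and P1, coloured by class. Filled points passed an adjusted p of 0.05 (12, 13 and 10 genes): the fibrillar chains and Col4a1, Col4a2 and Col4a5 lie left of 0 in all panels, except Col24a1 at FD22 (0.13), and Lama2, Lama5 and Col13a1 lie right of 0.

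Laminin chains differed by type. Lama2 had log2 ratios of 0.34, 0.51 and 0.47 at FD19, 0.61, 0.10 and 0.92 at FD22 and 0.82, 0.77 and 0.54 at P1, all above 0, and a mean ratio of 0.57 ± 0.10 (adjusted p = 0.000209). Lama5 had 0.14, 0.20 and 0.49 at FD19, 0.52, 0.57 and 0.68 at FD22 and 0.56, 0.36 and 0.72 at P1, also all above 0, and 0.47 ± 0.09 (adjusted p = 0.000368). Of all genes tested 91.8% had a lower mean ratio than Lama2 and 87.6% a lower one than Lama5. Lamc1, the gamma partner of both, had -0.22, -0.65 and -0.34 at FD19, -0.13, -0.35 and -0.03 at FD22 and -0.09, -0.21 and -0.14 at P1, all below 0, and a mean ratio of -0.24 ± 0.08 (adjusted p = 0.0145). Lamc1 lost its call without FD19 lysate 2, with median centring, or with the mean of its probe sets (adjusted p from 0.0692 to 0.718). Its second probe set gave -0.06 ± 0.12. Lama4, the endothelial alpha chain, gave opposite results with its 2 probe sets, 0.35 ± 0.10 (adjusted p = 0.00706) and -0.35 ± 0.12 (adjusted p = 0.0193), so its direction is uncertain. No other gene among the 13 with more than 1 probe set had opposite calls. Second probe sets of Col6a3 (-0.88 ± 0.19, adjusted p = 0.00128) and Col15a1 (-0.42 ± 0.13, adjusted p = 0.0114) had lower mean ratios. Without a block the probe sets used for these genes did not pass. Conversely, the second probe set of Col6a2 (-0.27 ± 0.18) did not pass.

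Col13a1 had log2 ratios of 0.02, 0.63 and 0.68 at FD19, 0.10, 0.80 and 1.27 at FD22 and 1.04, 1.01 and 1.30 at P1 and a mean ratio of 0.76 ± 0.13 (adjusted p = 0.000133), with 96.9% of genes below it. Other members with a lower mean ratio were Col26a1 (-0.60 ± 0.18, adjusted p = 0.0106), Col23a1 (-0.42 ± 0.10, adjusted p = 0.00296), Col6a2 (-0.39 ± 0.13, adjusted p = 0.0175), Col6a5 (-0.34 ± 0.12, adjusted p = 0.0315) and Col16a1 (-0.22 ± 0.07, adjusted p = 0.0158). This call of Col26a1 ended with median centring, or with quantile normalization (adjusted p from 0.0889 to 0.127). The call of Col23a1 was lost with median centring (adjusted p = 0.0774). Col6a2 did not pass without P1 lysate 2, or with median centring (adjusted p from 0.0534 to 0.296). Col6a5 lost its call without FD19 lysate 2 or FD22 lysate 3 or P1 lysate 1 or 3, with median centring, with only the arrays numbered 2 and 3, or with quantile normalization (adjusted p from 0.0608 to 0.319). This call of Col16a1 ended without FD19 lysate 2 or FD22 lysate 2, with median centring, or with only the arrays numbered 2 and 3 (adjusted p from 0.0503 to 0.868).

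Whether the ratio itself changed between stages was tested with the interaction of stage and RNA. No member passed for FD22 against FD19 by limma, and 0 of all 11590 genes did (0.0%). At an unadjusted p under 0.05 there were 5 members, all higher at FD22, and with the lysate as a block 0 passed. The share of all genes at the unadjusted threshold is not given, here or for P1 against FD22. The fitted values of 35 of the 40 members (87.5%) were above 0, with a median of 0.28, where 49.0% of all genes were above 0 and their median was -0.01. For P1 against FD22 no member passed either (0.0259% of all genes did, all lower), with 2 members at an unadjusted p under 0.05, 1 of them higher, and 0 with the block. The member median was 0.00, with 20 of 40 above 0. The design of 3 lysates per stage limits what this interaction can show.

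Lamb1 was the laminin whose lysates changed sides. Its log2 ratios were -0.43, -0.04 and -0.19 at FD19, 0.47, 0.22 and 0.52 at FD22 and 0.53, 0.18 and 0.35 at P1, so that all 3 were below 0 at FD19 and all 6 later ones above 0. The ratio change of 0.63 ± 0.18 did not pass (adjusted p = 0.999). The other member with all FD19 lysates below and all FD22 lysates above 0 was Col14a1, with -0.50, -0.20 and -0.24 at FD19, 0.19, 0.04 and 0.24 at FD22 and 0.01, -0.09 and -0.11 at P1. Its ratio change was 0.47 ± 0.16 (adjusted p = 0.999), and its second probe set gave 0.19 ± 0.19. Col18a1 had the largest ratio change, 1.13 ± 0.41 (adjusted p = 0.999), with log2 ratios of -0.48, -0.37 and -1.07 at FD19, 0.63, -0.03 and 0.89 at FD22 and 0.39, -0.34 and 0.58 at P1, of which FD22 lysate 2 stayed below 0.

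Genes that act with these chains were followed as lists, whose counts are to be read against the shares of all genes given above for each comparison. Among 25 genes of collagen folding, modification and cross-linking, 0 rose and 3 fell in total RNA from FD19 to FD22, namely P3h4 (-1.02 ± 0.18, adjusted p = 0.00067), a partner of lysyl hydroxylase, Plod2 (-0.75 ± 0.15), a lysyl hydroxylase, and P4hb (-0.41 ± 0.11), a subunit of prolyl hydroxylase. On polysomes 4 rose and 3 fell, with P3h4 at -1.17 ± 0.18, P4ha1, the catalytic subunit of prolyl 4-hydroxylase, at 0.75 ± 0.17, Mia3, a cargo receptor for procollagen export, at 0.54 ± 0.13, and Fkbp14, a folding enzyme of the endoplasmic reticulum, at -0.73 ± 0.17. The list medians were -0.21 in total RNA and -0.07 on polysomes. From FD22 to P1 the hydroxylase subunit P4ha1 fell in both RNAs, by 1.12 ± 0.17 in total RNA (adjusted p = 0.000673) and by 1.15 ± 0.17 on polysomes (adjusted p = 0.000347). Lox, which cross-links fibrils, rose by 0.41 ± 0.10 and 0.43 ± 0.10. In total RNA 1 rose and 1 fell of the 25, and on polysomes 2 rose and 4 fell, among them P4ha2 at 0.48 ± 0.12.

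The mean ratio of this list was higher for 6 of 25 genes and lower for 2 (median 0.13), where 24.9% of all genes were higher and 22.2% lower, so the higher ones lay near the background. Colgalt1, which glycosylates hydroxylysine, was among the higher ones at 0.89 ± 0.08, and P4ha1 was among the lower ones at -0.45 ± 0.10. Of 9 small proteoglycans and glycoproteins that bind fibrils, 5 had a higher mean ratio and 0 a lower one (median 0.32), among them Dpt (0.90 ± 0.08), Aspn (0.80 ± 0.17), Lum (0.60 ± 0.17) and Fmod (0.51 ± 0.10). These bind the fibrils whose own chains Col1a1, Col1a2 and Col3a1 had ratios below 0. At FD22 against FD19, 1 of the 9 passed on polysomes, Postn (0.59 ± 0.12).

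Of 10 other basement membrane components, 1 had a higher mean ratio, Tinagl1 (0.34 ± 0.10), and 3 a lower one: the nidogens Nid2 (-0.60 ± 0.07, adjusted p = 1.06e-06) and Nid1 (-0.42 ± 0.06), which link laminin to collagen IV, and the peroxidase gene Pxdn (-0.31 ± 0.08), which cross-links collagen IV. Nid2 fell in total RNA at FD22 by 0.66 ± 0.11 (adjusted p = 0.000521), the only one of the 10 to pass, and on polysomes Pxdn (0.70 ± 0.15) and Agrn (0.47 ± 0.15) rose. Of 12 receptors of collagens and laminins, 3 rose in total RNA and 6 on polysomes at FD22, and none fell. Sdc1, a syndecan, rose by 0.82 ± 0.14 in total RNA and 0.90 ± 0.14 on polysomes, its relative Sdc4 by 0.76 ± 0.12 in total RNA, and the integrin chain Itga1, of the collagen IV receptor, by 0.88 ± 0.17 on polysomes. From FD22 to P1 the laminin receptor chain Itga3 rose in total RNA (0.51 ± 0.13) and the fibrillar collagen receptor chain Itga11 fell (-0.97 ± 0.26). The mean ratio was higher for 4 receptors and lower for 3 (median -0.11).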

How the data were processed

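Total and large-polysome RNA of rat lung was hybridised to Affymetrix expression arrays. The deposited values are linear probe set intensities that the authors had scaled to a common trimmed mean, judging from the deposited values, and GCOS 1.4 is the software named per the submitters' processing notes. The signal algorithm is not given in the sources used here.

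To each intensity 5.5 (the 10th percentile of all values) was added before log2. Probe sets above 40.8 (the 40th percentile) on at least 3 arrays were kept, 21675 of 31042. Array medians differed by at most 1.42 times, and no further scaling was done. limma 3.58.1 in R 4.3.3 was fitted to all 18 arrays with 6 group means and a variance trend (12 residual degrees of freedom), and p-values were Benjamini-Hochberg adjusted over all probe sets. It was tested on simulated data. Each gene is given by its probe set of highest mean signal. Promoters are the bases before the starts annotated in RefSeq (GRCr8).

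Values on every array are given for members that passed in a stage comparison and always for the collagen I and III chains, Col4a1, Col4a2, Lamb1 and Lamc1, and for other lists at most 4 genes with the smallest p-values per comparison are named. Members and lists were chosen with earlier results of these data known.

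Total and polysomal RNA of 1 lysate are paired by design, and in 9 of 9 lysates both arrays departed from their group means in a correlated way (r from 0.186 to 0.488). The correlation of same-numbered arrays exceeded 0.1 in every case for the polysomal arrays of FD19 and FD22 (0.226 to 0.498) and the total arrays of FD19 and P1 (0.119 to 0.313), a hint from the data and not the design. The litters of a stage are separate, so p-values of stage comparisons within 1 kind of RNA measure the spread between litters, pooled over both kinds of RNA. For ratios and ratio changes, the fit without a block took the 2 arrays of a lysate as unpaired. Only the block by lysate measures the spread of the ratio between litters. The alternatives were other constants, filters and scalings, no variance trend, blocks by lysate or array number, 1 lysate left out, only the arrays numbered 2 and 3, the mean of a gene's probe sets and other class definitions.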

Additional observations from a re-analysis of the deposited data

How the results depend on the processing

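Of 117 member gene results that passed, 59 passed under every setting that was run and 58 were lost under at least 1. Among all member results, passed or not, 4 reversed, and only that of Lama4 had passed. The cause of the reversals was not tested. Reversed were Col6a3 in the ratio at FD22 (0.34) and the mean ratio (0.19) with quantile normalization, and in the ratio at P1 (-0.54) with the mean of its probe sets, and Lama4 in the mean ratio (-0.003) with the mean of its probe sets. Leaving out 1 lysate gave 5 to 11 calls for FD22 against FD19 and 0 to 1 for P1 against FD22 in total RNA, 8 to 13 and 3 to 6 on polysomes, and 8 to 15 for the ratio at FD22. With only the arrays numbered 2 and 3 there were 7 and 1 calls in total RNA and 2 on polysomes for P1 against FD22. For P1 against FD22 in total RNA, a stricter filter (60th percentile) gave 1 call and quantile normalization 2. The block by array number gave 2 calls there, 14 in place of 11 for FD22 against FD19 in total RNA and 21 in place of 18 for P1 against FD19 on polysomes, and the block by lysate gave 20 at FD19. Counts with a block have no share of all genes to be read against. In total RNA at FD22 against FD19, the change of the basement membrane mean minus that of the fibrillar mean (0.50) was 0.42 with no filter and with quantile normalization, 0.43 with the mean of probe sets, 0.35 with Col15a1 and Col18a1 counted as basement membrane and 0.36 with Col1a1, Col1a2 and Col3a1 as the fibrillar class. With that fibrillar class this value was 0.09 for P1 against FD22 in total RNA, and 0.28 and -0.07 for the same intervals on polysomes, where counting Col15a1 and Col18a1 gave 0.36 at FD22 against FD19. The stricter filter gave 0.15 for P1 against FD22 in total RNA, and 0.57 and -0.01 on polysomes, where the values had been 0.45 and 0.11. In the mean ratio (0.63) it was 0.46 with quantile normalization and 0.53 with the mean of probe sets. The 3 arrays per group limit the precision, and dim genes such as Col4a4 and Col24a1 lie close to the threshold on signal.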
